A study of Schizosaccharomyces pombe with 4 samples.

Results

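Peaks of the forkhead factor Fkh2 and of the RFX-family factor Sak1 were examined at 8 fission yeast genes of carbon metabolism: pyk1, gpm1, gpd3 and tpi1 of glycolysis, the hexose transporter gene ght8, the hexokinase gene hxk2, the phosphoglucomutase gene pgm1 and the malic enzyme gene mae2. A gene counted as having a peak when the peak centre lay from 1000 bp upstream to 250 bp downstream of its annotated 5′ end, called the gene start here. The 8 genes were chosen from the peak lists themselves, out of 5113 annotated nuclear protein-coding genes, so the presence of a peak at them and the factor it belongs to are a description and were not tested. Of the 210 peaks deposited in all, 8 were in reach of these genes.

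The chromatin came from asynchronous Schizosaccharomyces pombe cultures in YES, a rich medium. In 3 strains Fkh2, Sak1 or Sep1 was fused at its C terminus to TAP, a tandem tag that is captured by IgG on Sepharose beads (strains JLP1586, JLP1792 and JLP1670), and the Sep1-TAP culture had also received bortezomib, a proteasome inhibitor, at a labelled 1 mM for 45 min; the labels name no treatment of the other cultures. An untagged strain, F108, went through the same immunoprecipitation and served as the control of every list. Each group is 1 sample that pools 2 biological experiments, so no difference below has a replicate error, and the intervals given cover counting error only. The lists held 152 Fkh2, 47 Sak1 and 11 Sep1 peaks from libraries of 1042990, 795148 and 906632 tags, and the caller's scaling put the untagged library at about 487503 tags.

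In glycolysis, glucose is taken up by hexose transporters, phosphorylated by hexokinase, split into triose phosphates and oxidised to pyruvate, which S. pombe ferments to ethanol when sugar is plentiful. Phosphoglucomutase links the glucose 6-phosphate of this route to glucose 1-phosphate, the precursor of cell wall glucans, and malic enzyme decarboxylates malate to pyruvate. Fkh2 and Sep1 are known for periodic transcription in mitosis, and Sak1 was first described through its link to cyclic AMP-dependent protein kinase, the kinase of glucose sensing in this yeast. Forkhead proteins bind a core word GTAAACA and RFX proteins bind words such as GTTGCCA.

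The 4 genes with a Fkh2 peak all act between triose phosphate and pyruvate. Their peak sequences are shown because each holds the forkhead word, which is in capitals on either strand together with the word GTTGTCA described below. Each is the whole deposited peak, 155 bp, read 5′ to 3′ on the strand of the gene from the RefSeq assembly ASM294v3, at I:3846998-3847152 (minus strand), I:5175049-5175203 (minus strand), II:577965-578119 (plus strand) and III:939198-939352 (plus strand).
pyk1: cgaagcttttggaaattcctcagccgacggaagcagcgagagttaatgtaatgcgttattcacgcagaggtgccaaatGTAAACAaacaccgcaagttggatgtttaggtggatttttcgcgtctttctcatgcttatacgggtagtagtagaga
gpm1: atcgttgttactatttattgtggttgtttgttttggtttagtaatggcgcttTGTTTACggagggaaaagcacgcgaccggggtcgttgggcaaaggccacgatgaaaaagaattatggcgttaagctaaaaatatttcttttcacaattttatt
gpd3: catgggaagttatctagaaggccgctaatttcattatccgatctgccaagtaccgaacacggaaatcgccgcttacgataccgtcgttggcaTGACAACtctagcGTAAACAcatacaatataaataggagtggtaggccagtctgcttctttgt
tpi1: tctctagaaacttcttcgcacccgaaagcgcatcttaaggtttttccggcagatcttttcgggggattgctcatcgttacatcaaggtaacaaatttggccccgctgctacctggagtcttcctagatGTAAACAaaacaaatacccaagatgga

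The 4 genes with a Sak1 peak lie at the entry of hexoses, at glucose phosphate and at malate. The peaks of hxk2, pgm1 and mae2, 235 bp each, are shown for contrast, with the forkhead word, the RFX words GTTGCCA and GTTACCA and the word GTTGTCA in capitals on either strand; the hxk2 peak holds none of them. They lie at I:2664577-2664811 (plus strand), II:2802149-2802383 (plus strand) and III:277443-277677 (minus strand) of the same assembly.
hxk2: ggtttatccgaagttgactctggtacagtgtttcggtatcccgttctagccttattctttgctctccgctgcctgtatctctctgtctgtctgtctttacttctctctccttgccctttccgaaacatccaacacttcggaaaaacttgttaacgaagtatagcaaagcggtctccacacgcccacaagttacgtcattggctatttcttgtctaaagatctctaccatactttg
pgm1: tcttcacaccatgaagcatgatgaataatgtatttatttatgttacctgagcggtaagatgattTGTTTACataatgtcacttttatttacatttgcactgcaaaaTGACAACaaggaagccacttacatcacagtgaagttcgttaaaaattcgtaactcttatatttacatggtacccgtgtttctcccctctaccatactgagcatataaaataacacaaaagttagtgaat
mae2: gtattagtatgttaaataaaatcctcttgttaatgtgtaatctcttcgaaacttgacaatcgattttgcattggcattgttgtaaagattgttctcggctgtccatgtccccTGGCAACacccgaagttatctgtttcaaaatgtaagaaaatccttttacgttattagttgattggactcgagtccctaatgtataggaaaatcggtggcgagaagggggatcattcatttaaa

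Fkh2 peaks were in reach of tpi1, gpd3, gpm1 and pyk1, that is of 4 of the 8 genes, where 2.84% of all annotated genes had one. Sak1 peaks were in reach of the other 4, ght8, hxk2, pgm1 and mae2, where 1.06% of all genes had one. Sep1 peaks were in reach of 0 of the 8, where 0.176% of all genes had one. No gene of the 8 had peaks of both factors. Of all genes, at most the 1.06% with a Sak1 peak could have had both, and the actual share is not given here. Joint places were the usual case for Sak1. Among its 46 peaks in the nuclear genome, 36 shared at least 1 bp with Fkh2. The 4 Sak1 peaks at these genes were among the other 10. The nearest Sak1 peak lay 8.77 to 500 kb from the Fkh2 peaks and the nearest Fkh2 peak 12.8 to 20.8 kb from the Sak1 peaks. The nearest Sep1 peak was at least 90.1 kb from any of the 8 peaks. Nothing is read from these shares or from the split, since the genes were picked with the lists in view.

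The plot of ordered tag counts shows where the 8 peaks stood in their lists. Levels are normalised tag counts, that is tags in the peak scaled by the authors to 10000000 per library, and they rank peaks within 1 list only, since peak widths and libraries differ.

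**Figure D1:**
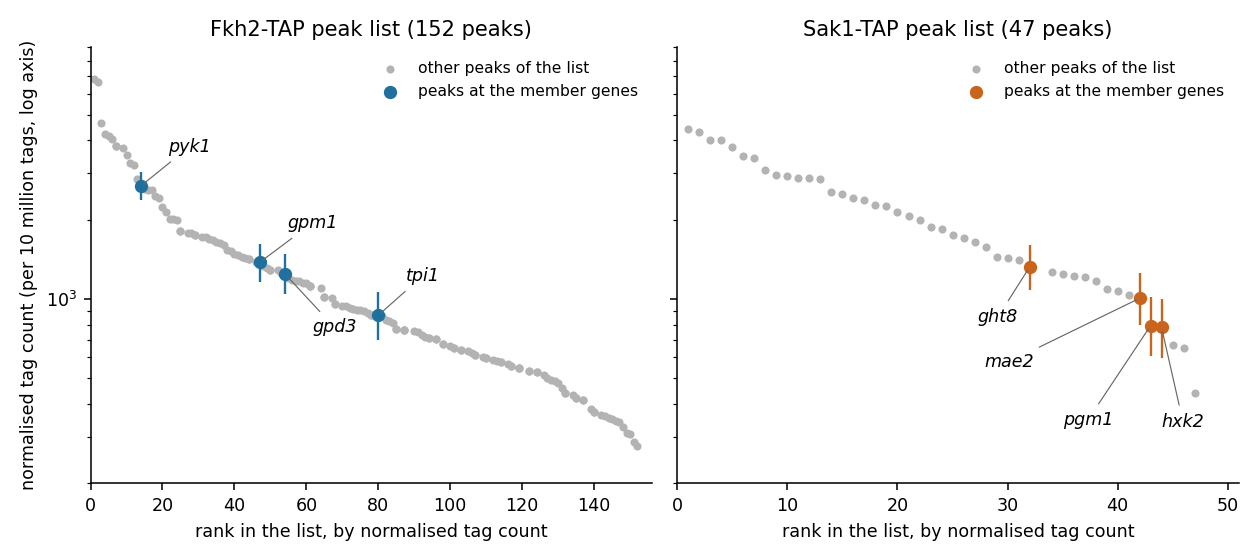
Normalised tag count (log axis) of every peak against its rank in the Fkh2-TAP list and the Sak1-TAP list, with the peaks at the 8 genes in colour and their 95% counting intervals as vertical lines. The pyk1 peak ranked 14 of 152 in the Fkh2 list, and the 4 Sak1 peaks ranked 32 to 44 of 47.

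At pyk1, which encodes pyruvate kinase, the enzyme of the last step of glycolysis, the Fkh2 peak had a normalised tag count of 2684.6 (280 tags, 95% Poisson interval 2379 to 3018 on the normalised scale). It was the strongest of the 4 and ranked 14 of 152 by tag count. The untagged control held 15.5 tags there, the third highest control count in the list, whose median was 4. The fold over the control was therefore 8.49 (95% interval 5.07 to 15.1), and the rank by fold was 97. With control counts under the genome-wide mean for the peak width raised to that mean, the rank of pyk1 by fold was 53 of 152.

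At gpm1, the phosphoglycerate mutase gene, the count was 1376 (143.5 tags, 1160 to 1620), rank 47. Over 3 control tags the fold was 22.3 (interval 7.50 to 110), the highest of the 4 Fkh2 peaks. At gpd3, which encodes a glyceraldehyde 3-phosphate dehydrogenase, the count was 1246 (130 tags, 1041 to 1480), rank 54, and the fold was 15.3 over 4 control tags (interval 5.79 to 56.6). The counts at gpm1 and gpd3 lay within each other's counting intervals, and both lay below that of pyk1.

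At tpi1, the triosephosphate isomerase gene, the count was 867.7 (90.5 tags, 698 to 1066), rank 80, just under the list median of 894. Its fold was 10.5 over 4 control tags (interval 3.99 to 39.6). The 4 counts thus spanned the part of the Fkh2 list from near its top to its middle (list quartiles 575 and 1521). Except at pyk1, their control tags were at or below the list median of 4.

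All 4 Sak1 peaks stood low in their list by tag count. By fold over the control the peaks at pgm1 and mae2 ranked 6 and 18 of 47, over 0.5 and 2 control tags. With control counts under the genome-wide mean for the peak width raised to that mean, they ranked 43 and 40. On that scale ght8 ranked 30 and hxk2 44. At ght8, a hexose transporter gene, the count was 1320.5 (105 tags, 1080 to 1599), rank 32 of 47, under the list median of 1849. The fold was 10.7 over 6 control tags (interval 4.77 to 29.9). At mae2 the count was 1006 (80 tags, 798 to 1252), rank 42, and the fold was 24.4 over 2 control tags (interval 6.57 to 206).

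At pgm1 the count was 792.3 (63 tags, 609 to 1014), rank 43. The listed fold of 77 (interval 7.99 to 79597.5) rested on a control value of 0.5 tags, the lowest in the files. Its upper limit comes from entering 0.5 as a count and is approximate. With the control set at a floor of 3 tags the fold was 12.8. That value depends on the floor chosen and is not a lower bound. At hxk2 the count was 779.7 (62 tags, 598 to 999.6), rank 44, at 7.58 fold over 5 control tags (interval 3.09 to 24.2). The counts at pgm1, hxk2 and mae2 were below the lower quartile of the Sak1 list, 1232.5, and those at pgm1 and hxk2 differed by 1 tag.

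**Figure D2:**
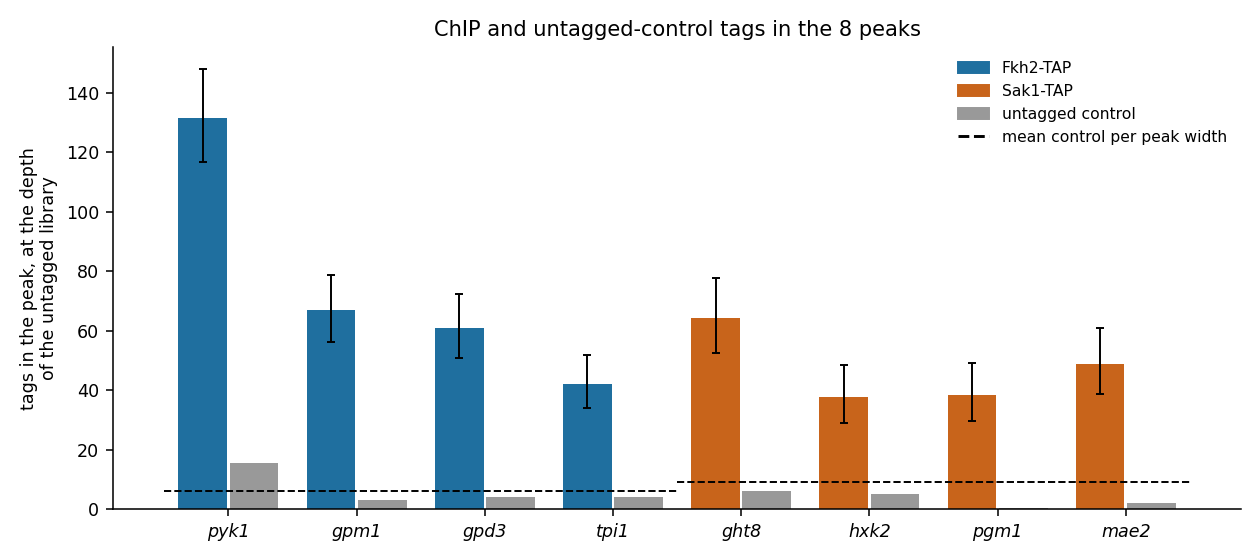
Tags in each of the 8 peaks for the tagged library (coloured bars, with 95% Poisson counting intervals) and the untagged control (grey bars), both at the depth of the untagged library; dashed lines give the mean control tags per peak width. The control exceeded that mean at pyk1, with 15.5 tags, and stayed below it at the other genes.

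A mean of 5.99 control tags fell on any 155 bp and of 9.08 on any 235 bp of the genome. With the control raised to these means where it was lower, the fold was 8.49 at pyk1, 11.2 at gpm1, 10.2 at gpd3 and 7.04 at tpi1. For Sak1 it became 7.07 at ght8, 5.39 at mae2, 4.24 at pgm1 and 4.17 at hxk2, so all 8 stayed above the 4 fold that the caller required, and the last 2 by little. The fold over the 10000 bp around the peak had to be at least 4 as well. It was 9.68 at pyk1, 7.58 at gpd3, 5.34 at gpm1 and 4.20 at tpi1 (Fkh2 list median 6.91). It was 6.62 at ght8, 5.10 at mae2, 4.22 at hxk2 and 4.09 at pgm1 (Sak1 list median 7.83). The peaks at tpi1, hxk2 and pgm1 therefore lay close to the limit for being listed.

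A gene without a listed peak is not shown to be free of the factor. The header thresholds of 30 tags for Fkh2 and 35 for Sak1 correspond to normalised counts of 288 and 440. They are not exact limits of the listed counts, since the lowest listed Fkh2 count was 278. At pyk1, 4 fold over the control tags would have needed a Sak1 count of at least 1272, since the wider Sak1 peak holds at least the same control tags. The same bound was 246 at gpm1 and 328 at gpd3 and tpi1, under the tag threshold of 440 and under the counts of the 4 Sak1 peaks described here. Of the Sak1 peaks at ght8, mae2, pgm1 and hxk2, 1 had a count above 1272, and 33 of all 47 Sak1 peaks did. At the Sak1 places, 4 fold would have needed a Fkh2 count of at most 492 (ght8), 410 (hxk2), 164 (mae2) and 41.0 (pgm1). For the last 2 the tag threshold of about 288 was the higher bar. The fold over the local background in the other library cannot be worked out from the files.

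The plot of positions sets the peaks and the words against the gene starts. The Fkh2 centres lay 75 bp (gpd3), 400 bp (pyk1), 472 bp (gpm1) and 638 bp (tpi1) upstream. The Sak1 centres lay 90 bp (pgm1), 298 bp (mae2), 521 bp (ght8) and 929 bp (hxk2) upstream. Neither set was held to 1 distance: the Fkh2 centres ranged from 75 to 638 bp and the Sak1 centres from 90 to 929 bp. Of the 8, hxk2 was nearest to the limit of 1000 bp.

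**Figure D3:**
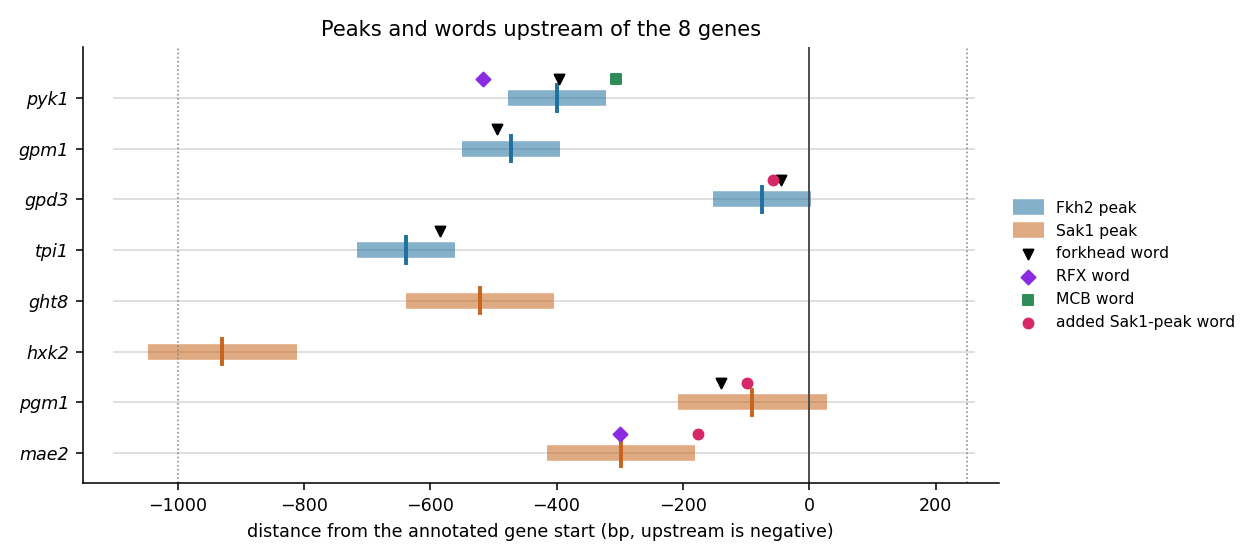
Peaks (bars, with a tick at the centre) and words (symbols) relative to the annotated start of each gene, in bp, with the limits of reach as dotted lines; the MCB word is ACGCGT and the added word is GTTGTCA, and words at ght8 are not shown. A forkhead word lies within the Fkh2 peak at pyk1, gpm1, gpd3 and tpi1 and within the Sak1 peak at pgm1.

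The forkhead word was present at every Fkh2 peak of the 4 glycolytic genes. The middle of the word lay 4 bp from the peak centre at pyk1, 22 bp at gpm1, 31 bp at gpd3 and 54 bp at tpi1. In the whole Fkh2 list 112 of 152 peaks (73.7%) had it no more than 150 bp from the centre, and there its distance had a median of 26 bp (quartiles 9 and 47.3). In windows of the same length, 301 bp, placed at the 8 distances of these peaks from the start of all 5113 genes, 10.4 to 16.1% held it. At pyk1 it read in the direction of the gene, as at gpd3 and tpi1, and at gpm1 in the opposite direction. With 4 peaks, and a share of 73.7% in the list, the count of 4 does not set these genes apart from other Fkh2 peaks.

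Of the 3 Sak1 peaks searched, those at hxk2, pgm1 and mae2, pgm1 alone had a forkhead word, 50 bp from its centre. In the list 33 of 46 nuclear Sak1 peaks (71.7%) had one, and most of these overlapped a Fkh2 peak. Of the 6 Sak1 peaks elsewhere that overlapped no Fkh2 peak, 3 had one. The RFX word, searched as GTTGCCA or GTTACCA, lay 2 bp from the centre of the mae2 peak and at neither hxk2 nor pgm1; it lay at 15 of 46 nuclear Sak1 peaks (32.6%) and in 4.46 to 5.52% of the placed windows. A further word, GTTGTCA, was added because it led a search over the Sak1 peaks in an earlier analysis of these data. Its share among Sak1 peaks is therefore not independent of that choice. The word lay 8 bp from the centre at pgm1 and 122 bp at mae2, outside the mae2 peak. It lay at 16 of all 46 nuclear Sak1 peaks (34.8%) and in 3.27 to 3.56% of placed windows. A similar word from that search, GTTGCTA, lay at none of the 7 peaks searched. No word searched lay at hxk2. A word absent from a window says only that these letters are not there.

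Of the 4 Fkh2 peaks, only those at pyk1 and gpd3 had other searched words within 150 bp of the centre. An RFX word, GTTACCA, lay 117 bp from the pyk1 centre, and the word ACGCGT, bound by the G1/S factor MBF, lay 94.5 bp from it. Both lay outside the deposited peak. An RFX word lay at 22 of 152 Fkh2 peaks (14.5%) and in 4.46 to 5.52% of placed windows. ACGCGT lay at 17 of 152 Fkh2 peaks (11.2%) and in 1.66 to 3.42% of placed windows. At gpd3 a GTTGTCA word stood 18 bp from the Fkh2 centre, 13 bp from the forkhead word, although gpd3 had no listed Sak1 peak. GTTGTCA lay at 17 of 152 Fkh2 peaks (11.2%), and at 4 of the 112 other Fkh2 peaks that overlapped no Sak1 peak. At pgm1 GTTGTCA and the forkhead word stood 42 bp apart under a Sak1 peak, with no listed Fkh2 peak. How often these words stand together at other peaks is not given here.

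The surroundings of the peaks differed from gene to gene. The gpd3, pgm1 and mae2 centres fell between annotated genes. The pyk1 centre fell over SPNCRNA.3713 and SPNCRNA.941, the tpi1 centre over SPNCRNA.7120, the ght8 centre over SPNCRNA.6754 and the gpm1 centre over SPNCRNA.1056, all long noncoding RNA genes. The gpm1 centre also lay in the coding sequence of mug106, a meiotically upregulated gene on the same strand that ends inside gpm1, 289 bp downstream of the mug106 start and so just outside its reach. The hxk2 centre likewise lay in the coding sequence of mug114, another such gene, which runs away from hxk2, 285 bp downstream of its start. By the nearest start of a protein-coding gene, these 2 peaks would be given to mug106 and mug114. No other protein-coding gene start was in reach of any of the 8 peaks; starts of noncoding genes were not assigned. The pgm1 centre lay 349 bp past the 3′ end of rum1, which encodes an inhibitor of the Cdc2 kinase and runs toward pgm1.

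**Figure D4:**
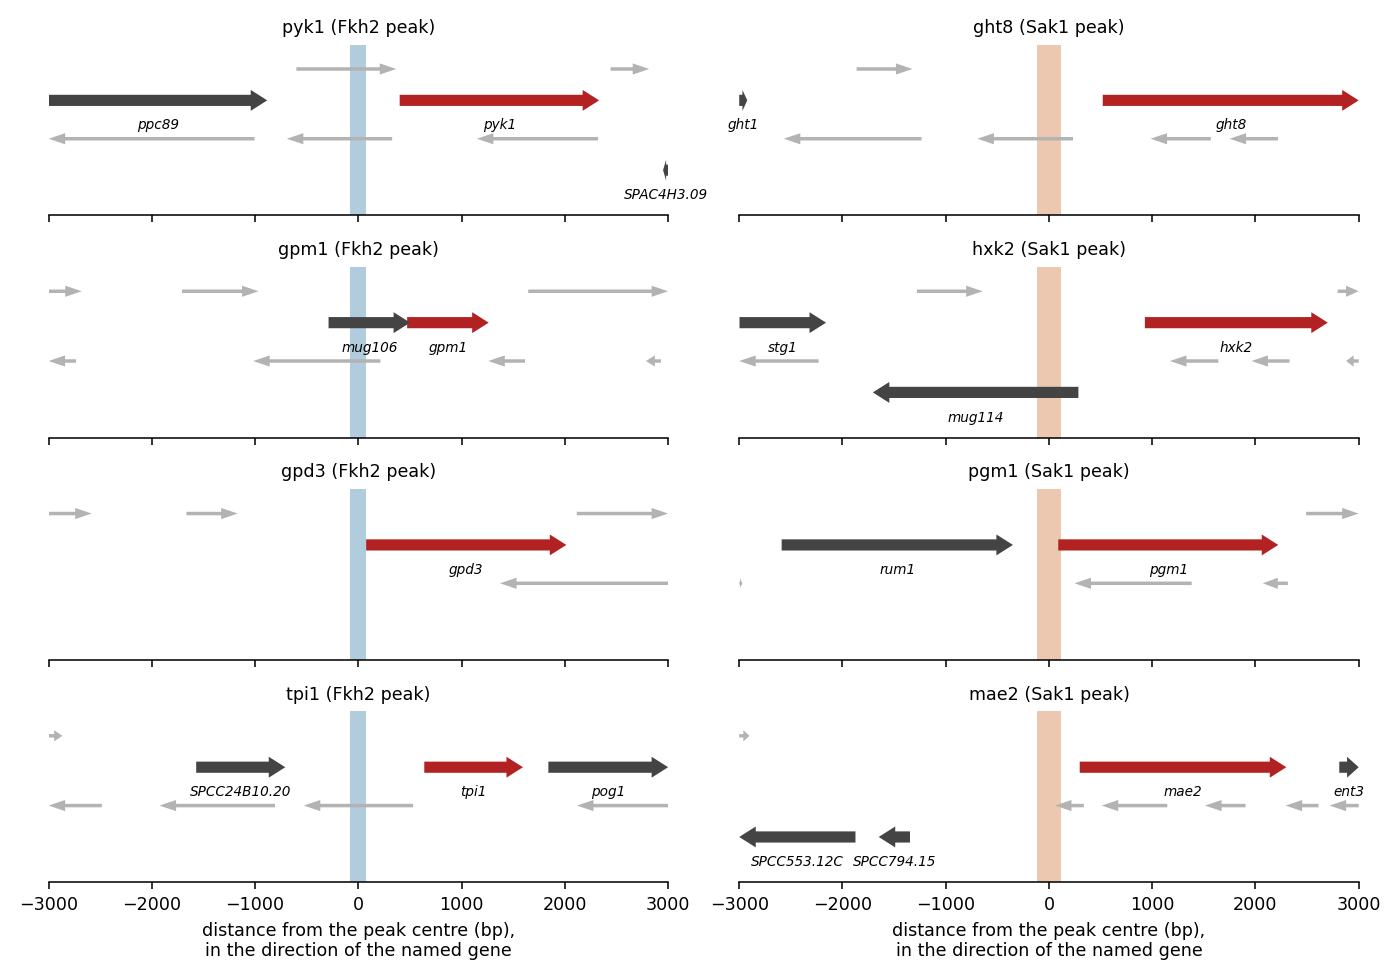
Annotated genes within 3000 bp of each of the 8 peak centres, in the direction of the named gene, with the peak shaded, the named gene in red, other protein-coding genes in dark grey and long noncoding RNA and other noncoding genes in light grey. The gpm1 and hxk2 centres lie over mug106 and mug114, and the other 6 centres lie outside protein-coding genes.

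Several of these genes have close relatives, and reads from near-identical copies could be misplaced. Of the 30-base words of each peak, 126 for a Fkh2 peak and 206 for a Sak1 peak, 0 occurred elsewhere in the assembly, so the 7 peak sequences examined, all but that of ght8, were single copy at that length. The base composition was 38.1 to 45.2% G and C in the Fkh2 peaks (list median 40%) and 33.2 to 44.7% in the Sak1 peaks at hxk2, pgm1 and mae2 (list median 36.6%).

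Other genes of the same pathways were read from a list of 54 genes in 12 steps, which includes the 8. Fkh2 peaks were in reach of 7 of the 54 (13.0%) and Sak1 peaks of 4 (7.41%), against 2.84% and 1.06% of all genes. Sep1 peaks reached 0. Without the 8 chosen genes, Fkh2 reached 3 of 46 (6.52%) and Sak1 0 of 46. No enrichment was tested, and the list was written with earlier results known.

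Of the 8 genes that act from triose phosphate to pyruvate, Fkh2 reached 4 and Sak1 0, where 2.84% and 1.06% of all genes had such peaks. All 4 are among the genes chosen from the lists, so this count follows from the choice. The other 4, tdh1 (the second glyceraldehyde 3-phosphate dehydrogenase gene), pgk1, eno101 and eno102, had their nearest Fkh2 peak 18.1, 170, 139 and 53.2 kb from the start. Of the 5 genes that act from glucose to triose phosphate, hxk1, hxk2, pgi1, pfk1 and fba1, Fkh2 reached 0 and Sak1 1, the chosen hxk2. The contrast between these parts of the pathway is thus set by the choice of genes. A Fkh2 peak with a count of 2224, rank 20, lay 1472 bp upstream of fba1, the aldolase gene, just outside the reach. With the reach widened to 1500 bp, fba1 was the only gene of the 54 that was added.

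Of the 8 hexose transporter genes, the chosen ght8 alone had a Sak1 peak and none had a Fkh2 peak. A Fkh2 peak stood 930 bp downstream of the ght4 start, with a count of 752.6. For hxk1, the second hexokinase gene, peaks of both Fkh2 and Sak1 lay 2428 and 2430 bp downstream of its start, and these were in reach of cdc25, the mitotic phosphatase gene. Of the 4 malate genes, mae1 (the malate permease), mdh1 and fum1 had no peak of either factor in reach.

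The 3 further Fkh2 genes lay outside glycolysis. At tps1, which encodes trehalose-6-phosphate synthase, the peak lay 714 bp upstream with a count of 1716, rank 32, and 11.9 fold over the control. At adh4, an alcohol dehydrogenase gene, the peak lay 737 bp upstream with a count of 709.5, rank 94, and was shared with SPAC5H10.07. By the nearest start of a protein-coding gene, that peak would not be given to adh4. At scr1, the gene of a zinc finger repressor of glucose-repressed genes, the peak lay 986 bp upstream, just inside the reach, with a count of 886.9, rank 77. The remaining 47 genes had no Fkh2 peak in reach.

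The Sak1 peaks at these genes belong to the few that stood apart from Fkh2. An overlap of at least 1 bp with Fkh2 was found for 36 nuclear Sak1 peaks and missing for the other 10, and 4 of these 10 were the peaks at ght8, hxk2, pgm1 and mae2. The 6 others had counts of 440 to 2553 (median 1654), against 779.7 to 1320.5 at the 4 genes. The forkhead word lay at pgm1 among the 3 searched and at 3 of the 6 others. The RFX word lay at mae2 among the 3 searched, at 0 of the 6 others and at 14 of the 36 that overlapped Fkh2. GTTGTCA lay at 2 of the 3, at 1 of the 6 others and at 12 of the 36. These counts are small, and the genes were chosen from this set, so no test was made. Of the 152 Fkh2 peaks, 116 had no Sak1 peak over them, the 4 glycolytic ones among them, and the counts of the 112 others ran from 278 to 4664.5 with a median of 714.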

How the data were processed

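Binding was measured by chromatin immunoprecipitation and sequencing. The submitters' processing notes name HOMER, Bowtie2 2.1.0 and SAMtools 0.1.18; no build or HOMER version is given in the sources used here. HOMER's findPeaks compared each tagged library with the untagged one, per the file headers, with a false discovery rate of 0.001, 4 fold over the control and over the surrounding 10000 bp, and Poisson p-values under 1e-04. The deposited values are signal (normalised tag counts, control tags), ratio (fold over the control and the local background), a score, a fraction (the share of tags around the centre) and p-values. The fraction was not printed, and neither were the deposited p-values.

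Peaks were assigned to gene starts of the RefSeq annotation of ASM294v3. Its fit to the coordinates was checked with the forkhead word, found at 112 of 152 Fkh2 peaks and at 5 to 19 after shifts of 1000 to 5000 bp. Assignment and word search recovered what was planted in simulated data. Intervals of tags use the exact Poisson form at 95%, and those of folds the exact binomial (Clopper-Pearson) form on tags and control tags. The files list these in steps of 0.5, and at counts that are not whole the intervals are approximate. All are counting error. Tag totals were 795148 to 1042990 in the tagged libraries and about 487503, as implied by the caller's scaling, in the untagged one. Words were searched on both strands within 150 bp of the centre; the sequence at ght8 is not reported here. Python 3.11.15, pandas 2.3.3 and SciPy 1.17.1 were used. No test was run across features: each group is 1 pooled sample, and the 8 genes and the pathway list were chosen with earlier results of these data known. Named are the 8 genes, other genes in reach of their peaks or of the list, and those nearest the limits of reach; where the text names neighbours, they were chosen after the values were seen. Of 55 listed genes 54 matched the annotation; glk1 did not. The barcode table was not used.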

Additional observations from a re-analysis of the deposited data

How the results depend on the processing

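The counts were recomputed under other limits of reach, peak thresholds, ranks and word windows. With the reach cut to 500 bp upstream and 0 bp downstream, Sak1 peaks remained at 2 of the 8 genes and of the list (pgm1 and mae2), and Fkh2 peaks at 3 genes of the list (gpd3, gpm1 and pyk1) in place of 7. In the upper 50% of each list by tag count, Sak1 peaks were at 0 of the 8 and of the list, and Fkh2 peaks at 4 of the list. By fold over the control, 2 Sak1 peaks stood above the middle of their list in place of 0. With its genome-wide mean as the least control value, 0 Sak1 peaks were 8 fold over it in place of 3. Within 75 bp of the centre, or within the peak, 0 of the 4 Fkh2 peaks held the RFX word and 0 the ACGCGT word, in place of 1 each. The word GTTGTCA, an alternative chosen after seeing the data, lay at 1 of the 3 Sak1 peaks searched under both limits, in place of 2. The other settings moved no count by more than 1.5 times. No paired analysis was possible because each group is 1 sample with its 2 experiments pooled, and for the same reason no replicate could be left out. Depth limits the folds: control values of 0.5 to 6 tags stood behind all but that of pyk1.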
